A study of Rattus norvegicus with 10 samples.

Results

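Expression of 9 genes that encode proteins of the synaptic vesicle and of its fusion with the presynaptic membrane was examined in the hippocampus of rats 3 months after traumatic brain injury (TBI). The genes were Syp, Sv2a, Sv2b, Syn1, Syn2, Syt1, Vamp2, Stx1a and Snap25. They were taken by symbol from a table of read counts per RefSeq RNA record, and where a gene had several records the one with the highest mean count was used. The 9 genes had 13 of the 32041 RNA records in the table. All 9 passed the filter on low counts, which left 22431 records tested. The lowest mean count among the 9 genes lay at percentile 94.3 of the 12284 tested symbols.

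The table held 10 adult male Sprague-Dawley rats, 5 in each of 2 groups, weighing 330 to 371 g at the time of injury. Their age was not stated, and no genetic change was named. In TBI rats a pressure pulse of 3.32 ± 0.01 atm was delivered to the intact dura through a craniectomy 5 mm wide over the left parietal lobe, a procedure called lateral fluid percussion. Sham rats had the same anaesthesia and craniectomy without the pulse, so both groups carried the effects of surgery. Tissue with CA3 and dentate gyrus from the left hippocampus, named dorsal hippocampus in the labels, was collected at 3 months, and poly-A RNA was sequenced in single reads of 36 bases. Rats are numbered 1 to 5 within a group only to name them, and the same number in both groups does not mark a pair.

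Neurons release transmitter from small vesicles that dock at the active zone of the presynaptic terminal. SNARE proteins on the vesicle and on the plasma membrane wind into one complex that pulls the membranes together, calcium entering the terminal is sensed by synaptotagmin, and the emptied vesicle is retrieved by endocytosis. Because most of these proteins are found in many kinds of neurons, their transcripts are often read as general markers of neurons and of presynaptic terminals. Most of the messenger RNA lies in the cell bodies, so hippocampal tissue reports on the neurons whose bodies it holds and not on axons that arrive from elsewhere.

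Libraries held 23425817 to 31671838 counts on RNA records. Ribosomal RNA took 58.5% of the counts of sham rat 5 and 59.0% of those of sham rat 4, and from 12.5% to 26.2% of those of the other 8 rats. No library was a copy of another. With edgeR's quasi-likelihood test and Benjamini-Hochberg adjustment, 0 of 22431 records (0%) were under 0.05, whereas DESeq2 called 3. The count was 5 without sham rat 3, 12 without TBI rat 3 and 92 with total count scaling. The number with an unadjusted p under 0.05 was 1769, or 7.89% of those tested, with 3.00% lower and 4.89% higher in TBI. Over the alternatives this share ran from 4.42%, with a ribosomal RNA covariate, to 16.9%, with total count scaling. Values are given as CPM, read counts scaled to the TMM-adjusted size of each library, and changes as TBI over sham on the log2 scale. The median change of all records was -0.01.

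None of the 9 vesicle and fusion genes differed between TBI and sham rats beyond the spread between rats. Of the 9, 0 passed the adjusted threshold, 0 had an unadjusted p under 0.05, and 0 had groups that did not overlap. The last share was 0.923% over all tested records. The median change of the 9 genes was -0.07, with 7 lower and 2 higher in TBI. All 9 were higher when libraries were scaled by their total counts. That scaling moved the median of all records to 0.50 and that of the 9 genes to 0.42. The 95% intervals of the 9 changes ran from -0.42 at the lowest bound to 0.26 at the highest, which is a fold from 0.748 to 1.20. The spread between rats was larger than the counting error, since the median biological coefficient of variation of the 9 genes was 12.5% and the largest counting error of any value was 2.36%. In bulk tissue, fewer cells of a type and less RNA per cell cannot be told apart.

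**Figure D1:**
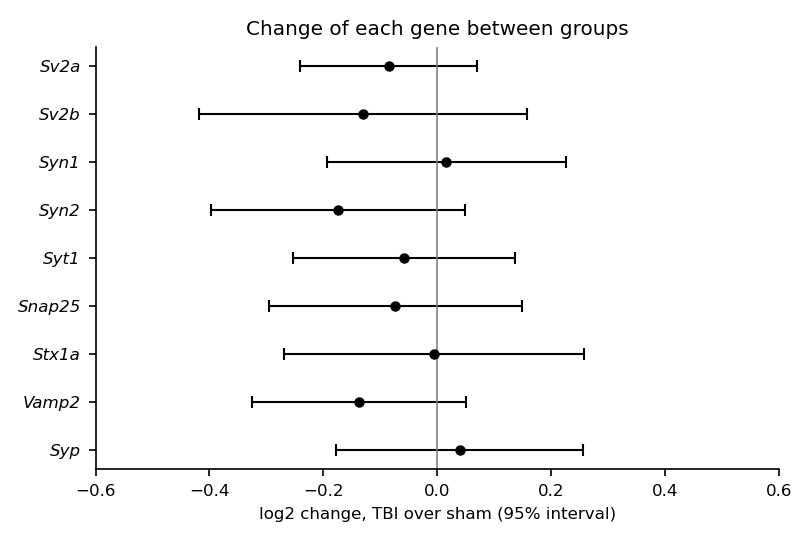
Change of each of the 9 genes in TBI over sham rats (n = 5 each) on the log2 scale, with 95% intervals from edgeR's quasi-likelihood fit. Every interval includes 0, from -0.42 at the lowest bound (Sv2b) to 0.26 at the highest. The position of all points relative to 0 moves with the scaling, and all 9 are above 0 when libraries are scaled by total counts. The median of all records is then 0.50 and that of the 9 genes 0.42.

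Of the vesicle membrane proteins, synaptophysin (Syp) is the most widely used label of presynaptic vesicles. Syp was at 714, 498, 604, 565 and 468 CPM in sham rats 1 to 5 and at 519, 565, 616, 632 and 597 CPM in TBI rats 1 to 5. The sham rats held both the highest and the lowest value, and every TBI value lay between them. Mean Syp expression was 570 ± 97.0 CPM (SD, n = 5) in sham and 586 ± 44.8 CPM (SD, n = 5) in TBI, a change of 0.04 (SE 0.104, 95% interval -0.18 to 0.26, edgeR's quasi-likelihood Benjamini-Hochberg adjusted p = 0.956).

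The SV2 proteins are transporter-like vesicle glycoproteins that act in the priming of vesicles, and SV2A is the binding site of the antiepileptic drug levetiracetam. Sv2a was at 329.5, 287, 289, 315 and 286 CPM in the sham rats and at 266, 278, 303, 289 and 285 CPM in the TBI rats. Its groups overlapped between 286 and 303 CPM, and the highest of the 10 rats was 1.24 times the lowest, the narrowest spread among the 9 genes. The change of Sv2a was -0.08 (SE 0.0741, 95% interval -0.24 to 0.07, edgeR adjusted p = 0.826), and without sham rat 1 it was -0.054. Sv2b, the paralog of Sv2a, was at 399.5, 285, 245, 286 and 209 CPM in sham rats and at 279, 232, 242, 283 and 266 CPM in TBI rats. It had the widest spread of the 9, with the highest rat at 1.91 times the lowest, and both of those rats were sham. The change of Sv2b was -0.13 (SE 0.135, 95% interval -0.42 to 0.16, edgeR adjusted p = 0.863), and without sham rat 1 it was 0.02.

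Synapsins are phosphoproteins on the outer face of the vesicle that hold vesicles in a reserve cluster. Syn1 was at 397, 313, 343, 316 and 332 CPM in sham rats and at 292, 301, 350.5, 421 and 355 CPM in TBI rats. The TBI group held both the lowest and the highest value and enclosed the sham group. The change of Syn1 was 0.02 (SE 0.100, 95% interval -0.19 to 0.23, edgeR adjusted p = 0.986). Syn2 was at 251, 207, 200.2, 194 and 165 CPM in sham rats and at 159, 169, 187, 218 and 167 CPM in TBI rats. TBI rat 4, at 218 CPM, lay above every sham rat but sham rat 1, and sham rat 5, at 165 CPM, lay among the other 4 TBI rats. Mean Syn2 expression was 203 ± 31.0 CPM (SD, n = 5) in sham and 180 ± 23.5 CPM (SD, n = 5) in TBI.

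Syn2 had the smallest p of the 9 genes, with a change of -0.17 (SE 0.106, 95% interval -0.40 to 0.05, edgeR unadjusted p = 0.117, Benjamini-Hochberg adjusted p = 0.727). Syn2 had an unadjusted p under 0.05 in 4 of the alternatives, at -0.25 without sham rat 5, at -0.25 without TBI rat 4, at -0.28 without sham rats 4 and 5, and at -0.30 with the ribosomal RNA share as a covariate. Its adjusted p in edgeR ranged from 0.592 to 0.974 over these 4. Without sham rat 1 the change of Syn2 was -0.09.

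Synaptotagmin 1 (Syt1) is the vesicle calcium sensor that triggers fast synchronous release. Syt1 was at 343, 295, 262, 256 and 242 CPM in sham rats and at 287, 257, 260.0, 288 and 251 CPM in TBI rats. All 5 TBI values lay inside the range of the sham rats, and the sham values above 288 CPM came from sham rats 1 and 2. The change of Syt1 was -0.06 (SE 0.0930, 95% interval -0.25 to 0.14, edgeR adjusted p = 0.916). Without sham rat 1 it was 0.02.

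The 3 SNARE proteins of fast release are synaptobrevin 2 on the vesicle (Vamp2) and syntaxin 1A and SNAP-25 on the plasma membrane (Stx1a and Snap25). Vamp2 was at 939, 868, 740.4, 832 and 915 CPM in sham rats and at 662, 763, 847, 812 and 819 CPM in TBI rats. The 3 highest values of Vamp2 were sham rats 1, 5 and 2 and the lowest was TBI rat 1, while sham rat 3 lay below 4 of the TBI rats. The change of Vamp2 was -0.14 (SE 0.0897, 95% interval -0.33 to 0.05, edgeR adjusted p = 0.746), and without TBI rat 1 it was -0.084.

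Stx1a was at 161, 118, 134, 137 and 112 CPM in sham rats and at 99.9, 119, 135, 167 and 138 CPM in TBI rats. Again the TBI group enclosed the sham group, and the mean was 132 CPM in both, with an SD of 19.4 in sham and 25.0 in TBI (n = 5 each). The change of Stx1a was -0.00 (SE 0.124, 95% interval -0.27 to 0.26, edgeR adjusted p = 0.998). Snap25 was at 492, 391, 437, 453 and 485 CPM in sham rats and at 416, 329.6, 405, 491 and 503 CPM in TBI rats. TBI rat 2 was lowest and TBI rat 5 highest in Snap25, so the TBI group enclosed the sham group here too. The change of Snap25 was -0.07 (SE 0.106, 95% interval -0.30 to 0.15, edgeR adjusted p = 0.903).

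**Figure D2:**
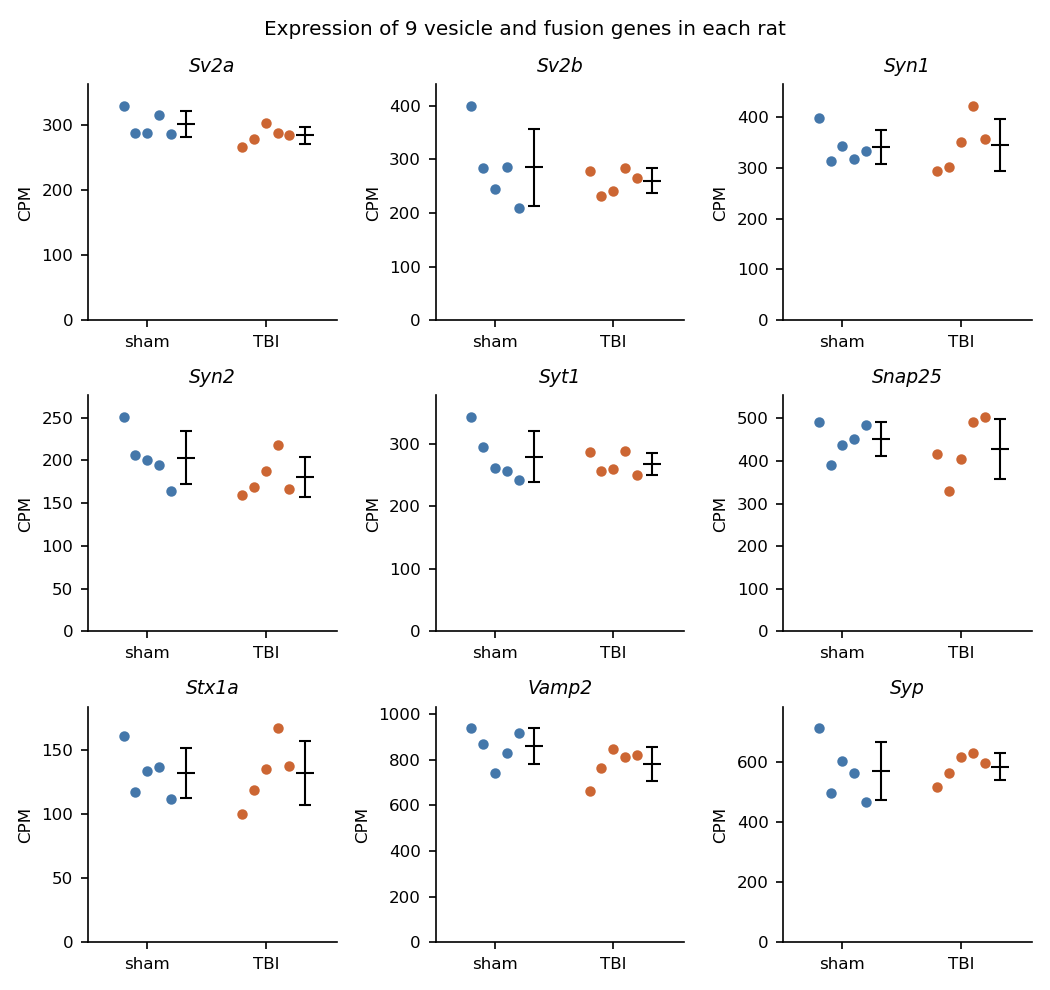
Expression of the 9 genes in each rat, in CPM on linear axes that start at 0, for sham and TBI rats (n = 5 each). Points are rats, and bars beside them give the mean and SD. In every panel the groups overlap, and sham rat 1 is the highest sham point, for example at 714 CPM in Syp.

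Some rats stood high or low in most of the 9 genes at once. Sham rat 1 was highest of the 10 rats in 6 of the 9 genes and highest or next to highest in all 9, at a median of 0.30 above the mean of the 10 rats on the log2 scale (range over the 9 genes 0.17 to 0.57). TBI rat 4 was highest in 2 genes, Syn1 and Stx1a, and lay at a median of 0.14 above the mean. TBI rat 1 was lowest in 5 of the 9 genes, and sham rat 5 was lowest in Sv2b, Syt1 and Syp. TBI rat 2 lay above the mean in 0 of the 9, at a median of -0.13. Without sham rat 1, 4 genes were lower and 5 higher in TBI, with a median change of 0.02.

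Sham rat 1 was also low in markers of dentate granule cells, the principal neurons of the dentate gyrus. Prox1, the transcription factor that marks these cells, was at 9.55 CPM in sham rat 1 and at 25.7 to 41.4 CPM in the other sham rats. Their secreted synaptic protein C1ql2 was at 33.4 CPM in sham rat 1, against 93.1 to 124 CPM in the other sham rats. TBI rat 5 was nearly as low, with Prox1 at 11.4 CPM and C1ql2 at 47.7 CPM, and its median deviation in the 9 genes was 0.0063. Over the dentate markers the summed level was lowest in sham rat 1, at 54.5 CPM, with up to 190.02 CPM in sham and 74.8 to 185 CPM in TBI rats. Of these markers 0 of 3 tested had an unadjusted p under 0.05 between groups, and none was at 0 in all rats. All 3 were lower in TBI, with a median change of -0.25. Their part in the high values of sham rat 1 was not tested.

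**Figure D3:**
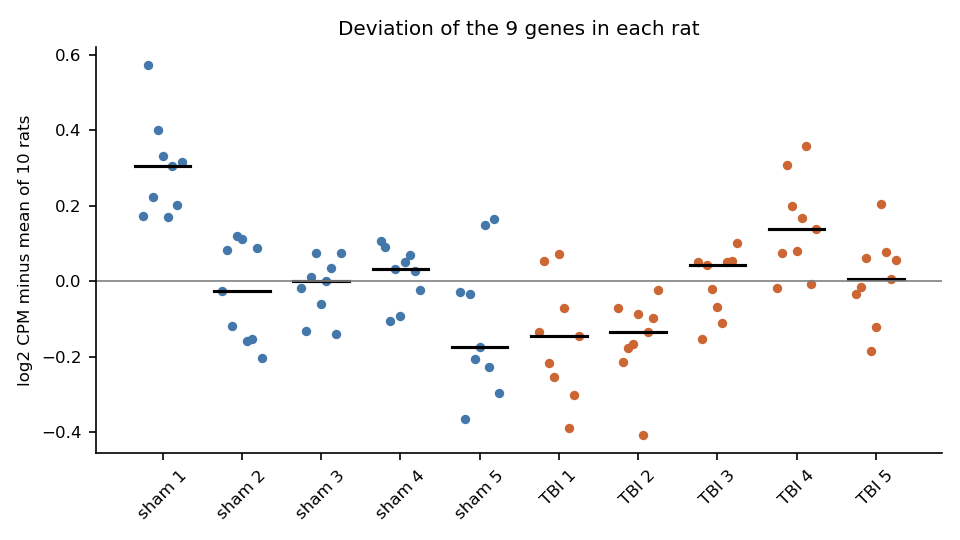
Deviation of each of the 9 genes in each rat from that gene's mean over the 10 rats, in log2 CPM. Each point is a gene, and the black line is the median of the 9 genes in that rat. Sham rat 1 stands highest, at a median of 0.30, with all 9 points above 0, and TBI rat 2 has all 9 points below 0.

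Syn1 and Stx1a followed the same order at its ends, with TBI rat 4 highest, sham rat 1 next and TBI rat 1 lowest, and the sequences in front of these 2 genes, chosen after their values were seen, are shown to set that shared order beside their promoters. The sequences are from RefSeq on build GRCr8, 5′ to 3′ on the strand of the gene, and each covers the 250 bases before the annotated start. The Syn1 window is chrX:3725495-3725744 on the plus strand, and the Stx1a window is chr12:27306472-27306721 on the minus strand. Capitals mark the cAMP response element TGACGTCA in Syn1 and the GC box GGGCGG, the core of binding sites of Sp1 factors, in Stx1a.
Syn1: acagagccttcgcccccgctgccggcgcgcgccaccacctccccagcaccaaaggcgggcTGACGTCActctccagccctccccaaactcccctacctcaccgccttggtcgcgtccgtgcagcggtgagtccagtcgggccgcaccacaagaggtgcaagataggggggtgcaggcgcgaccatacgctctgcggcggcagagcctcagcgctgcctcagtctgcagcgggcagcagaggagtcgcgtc
Stx1a: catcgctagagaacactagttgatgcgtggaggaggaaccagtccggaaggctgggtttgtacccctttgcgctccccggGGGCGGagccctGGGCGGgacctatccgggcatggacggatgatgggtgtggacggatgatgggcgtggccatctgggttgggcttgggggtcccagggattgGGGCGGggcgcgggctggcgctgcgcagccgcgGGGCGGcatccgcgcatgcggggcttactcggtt

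Both strands were searched for the 2 motifs. A GC box and a cAMP response element cannot share bases, while 2 GC boxes can, and each was then counted. Windows for 8 of the 9 genes were in the table of promoters, all but Snap25. The Syn1 window held 1 cAMP response element, starting 190 bases before the gene, and 0 GC boxes, and the Stx1a window held 4 GC boxes and 0 cAMP response elements. Syn1 and Stx1a shared neither motif in these windows, and any link of motifs to the order of rats was not tested. Syn2 had the same rats at its ends, with sham rat 1 highest, TBI rat 4 next and TBI rat 1 lowest. GC boxes were also present in Syn2, Syt1, Vamp2 and Syp, with 3, 3, 3 and 4, and absent in Sv2a and Sv2b. Of the 8 windows 5 held a GC box, where 30.5% of the 33469 windows in the table did, and 1.59% of all windows held the cAMP response element. A match describes letters in a window and not the use of a site.

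Markers of cell types were read beside these values. General neuronal markers, which include Rbfox3, Map2 and Tubb3, had 0 of 8 with an unadjusted p under 0.05 and a median change of -0.06, close to that of the 9 genes, and their summed level was 2971 to 3642 CPM in sham and 2713 to 3307 CPM in TBI rats. Of 6 markers of GABAergic interneurons, 3 (Gad1, Gad2 and Lhx6) had an unadjusted p under 0.05 and were lower in TBI, with a median of -0.38 over the list and a summed level of 139 to 194 CPM in sham and 104 to 159 CPM in TBI rats. Of 7 astrocyte markers, 3 (Gfap, Aldh1l1 and S100b) were higher at that threshold, with a summed level of 2260.2 to 3247 CPM in sham and 2459 to 4164 CPM in TBI rats. Markers of CA1 pyramidal cells, a field that the labels do not name, were present in every rat, with summed levels of 67.8 to 146 CPM in sham and 47.7 to 500.1 CPM in TBI rats. All 4 were higher in TBI, with a median change of 1.17, and 1 of them, Wfs1, had an unadjusted p under 0.05. Wfs1 was highest in TBI rats 1 and 2, at 129.7 and 237 CPM, the rats lowest in 6 of the 9 vesicle and fusion genes between them. TBI rat 5 was next highest in Wfs1, with a median deviation of 0.0063 in the 9 genes and 5 of them above their mean. Of 3 markers of CA3 pyramidal cells, 0 had an unadjusted p under 0.05, with a median change of 0.087. At that threshold 2 of 7 microglia, 1 of 6 oligodendrocyte, 1 of 2 thalamus and 1 of 4 choroid plexus markers were higher in TBI. Of 4 endothelium markers 0 were under it. None of the tested markers in these lists was at 0 in all rats. The study also listed Gad1, Gad2, Gfap and Wfs1 as altered from these data, so their changes here are not independent evidence. The part of cell makeup in the values of the 9 genes was not tested.

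Of the 9 genes, Syn1, Syn2 and Snap25 had more than 1 record. The records of a gene overlap in sequence and share reads of this length, so the share of each record was read as a check of the counting rather than as an isoform level. For Syn1, record NM_019133.2 held 50.3% ± 0.261 (SD, n = 5) of the counts of both records in sham and 50.4% ± 0.307 (SD, n = 5) in TBI. For Syn2, record NM_001034020.1 held 54.4% ± 0.708 (SD, n = 5) in sham and 54.4% ± 0.543 (SD, n = 5) in TBI. For Snap25, record NM_030991.3 held 39.5% ± 0.475 (SD, n = 5) of the counts of its 3 records in sham and 39.8% ± 0.487 (SD, n = 5) in TBI. The shares of these 3 records differed between groups by less than the spread between rats. In another Snap25 record, NM_001270576.1, the share was 28.4% ± 0.392 (SD, n = 5) in sham and 28.0% ± 0.309 (SD, n = 5) in TBI, a gap larger than either SD that was not tested. The changes over all 7 records of the 3 genes lay between -0.18 and 0.02.

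Paralogs that can take each other's place in the vesicle or the SNARE complex were compared as a log2 ratio of their counts within each library, which does not depend on scaling. Because transcript lengths were not used, the ratios give a difference between groups and not the relative abundance of the paralogs. Values of 4 pairs are given, and p-values were adjusted over the 5 pairs tested. With two-sided exact permutation tests over the 252 labelled splits of the rats, the smallest p that 5 against 5 can give is 0.00794. The ratio of Sv2b to Sv2a was -0.11 ± 0.272 (SD, n = 5) in sham and -0.13 ± 0.163 (SD, n = 5) in TBI, a difference of -0.02 (exact permutation p = 0.921, adjusted over the 5 pairs 0.976). That of Vamp1 to Vamp2 differed by 0.00 (exact permutation p = 0.976, adjusted 0.976).

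The ratio of Syn2 to Syn1 was -0.66, -0.60, -0.78, -0.70 and -1.01 in sham rats 1 to 5 and -0.88, -0.83, -0.90, -0.95 and -1.09 in TBI rats 1 to 5. Every sham rat other than sham rat 5 lay above every TBI rat. The mean went from -0.75 ± 0.161 (SD, n = 5) in sham to -0.93 ± 0.0987 (SD, n = 5) in TBI, a difference of -0.18 that did not pass the threshold (exact permutation p = 0.0794, adjusted over the 5 pairs 0.198). Leaving out 1 rat at a time moved the difference between -0.24, without sham rat 5, and -0.14.

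Synaptotagmin 2 (Syt2) is the fast calcium sensor of the brainstem, the spinal cord and some inhibitory terminals, where it takes the role of Syt1. The ratio of Syt2 to Syt1 was -5.64, -5.93, -6.12, -5.74 and -5.91 in sham rats and -6.77, -6.24, -6.11, -6.43 and -6.53 in TBI rats. The groups met only at sham rat 3 and TBI rat 3, which held nearly the same ratio. The mean ratio was -5.87 ± 0.187 (SD, n = 5) in sham and -6.42 ± 0.257 (SD, n = 5) in TBI, a difference of -0.55 (exact permutation p = 0.0159, adjusted over the 5 pairs 0.0794), which did not pass after adjustment. The study listed Syt2 as altered from these data, with 3 control rats by its methods, so the comparison is not independent evidence for it.

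**Figure D4:**
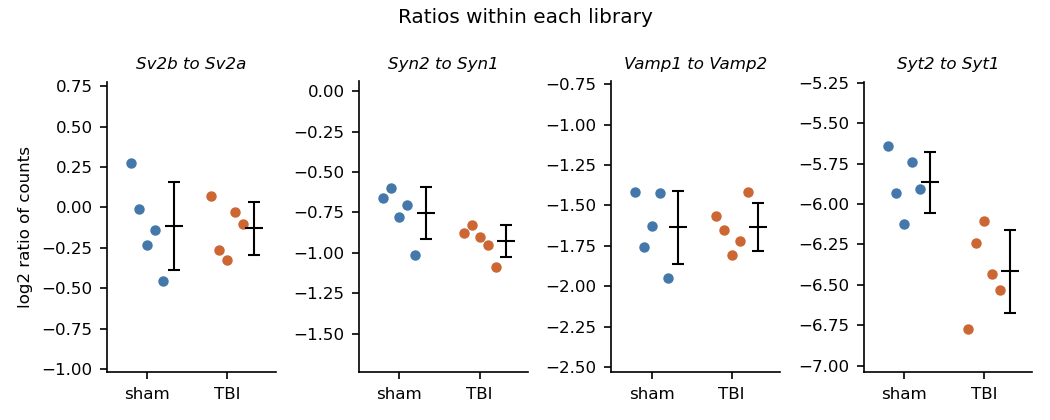
Log2 ratio of the counts of each of 4 pairs of paralogs within each library, for sham and TBI rats (n = 5 each), with mean and SD. Each panel spans the same range of log2 units around its own mean. The Syt2 to Syt1 ratio differs most, from -5.87 in sham to -6.42 in TBI, and its groups touch at -6.12 and -6.11.

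Around these 9 genes, 93 other genes of the vesicle cycle were listed in 5 groups, and 88 of them were tested. Of the 88, 0 passed an adjusted p of 0.05 and 0 had groups that did not overlap. At an unadjusted p under 0.05 there were 10 (11.4%), of which 9 (10.2%) were lower and 1 (1.14%) was higher in TBI, where 3.04% of all 12284 tested symbols were lower. The split depended on scaling, since 0 of 7 such genes were lower with total counts and 2 of 9 with total counts outside ribosomal RNA. Those scalings moved the median change of all records to 0.50 and 0.14, from -0.01 with TMM. With TMM, the count at an unadjusted p under 0.05 was 4 without sham rat 2, 4 without TBI rat 5 and 5 without TBI rat 2. Of the 10 genes, 2 (Syt2 and Rims3) were under the threshold in every fit that left out 1 rat, and 8 were over it in at least 1 such fit. The median change of the 88 genes was -0.04.

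Regulators of the SNARE complex and proteins of the active zone held 6 of the 10 genes. They were Rims3, Pclo, Ppfia2, Cplx3, Napa and Erc2, all lower in TBI, among 23 tested with a median change of -0.09. Rims3, a small member of the RIM family of active zone proteins, was at 14.2, 16.4, 9.91, 29.3 and 23.4 CPM in sham rats and at 10.7, 9.15, 10.2, 9.05 and 6.24 CPM in TBI rats. The 2 highest values came from sham rats 4 and 5, the rats richest in ribosomal RNA, and sham rat 3 lay inside the TBI range. The change of Rims3 was -1.01 (SE 0.282, edgeR unadjusted p = 0.00516, Benjamini-Hochberg adjusted p = 0.487). It was -0.57 without sham rats 4 and 5 and -0.41 with the ribosomal RNA share as a covariate. The study also listed Rims3 as altered from these data, with 3 control rats by its methods where 5 were used here.

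The other genes of this group differed less between groups. Pclo encodes piccolo, a very large scaffold protein of the active zone, and its mean was 84.8 ± 10.4 CPM (SD, n = 5) in sham and 71.2 ± 11.6 CPM (SD, n = 5) in TBI, a change of -0.25 (SE 0.108, edgeR adjusted p = 0.589). Ppfia2 encodes liprin-alpha-2, a scaffold that helps to assemble the active zone. Its change was -0.21 (SE 0.0927, edgeR adjusted p = 0.5997). Cplx3, Napa and Erc2 encode a complexin, the alpha-SNAP that works with NSF to take spent SNARE complexes apart, and an ELKS scaffold. Their changes were -0.39, -0.21 and -0.19.

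Among 14 other synaptotagmins and Doc2 calcium sensors, Syt2 was lower and Doc2a higher at the unadjusted threshold, and the median change was 0.02. Syt2 was at 6.87, 4.82, 3.74, 4.76 and 4.00 CPM in sham rats and at 2.61, 3.38, 3.76, 3.32 and 2.69 CPM in TBI rats. As in its ratio to Syt1, sham rat 3 and TBI rat 3 were the only rats at which the groups met. The change of Syt2 was -0.63 (SE 0.162, edgeR unadjusted p = 0.00104, Benjamini-Hochberg adjusted p = 0.478). Doc2a, a high-affinity calcium sensor of asynchronous release, was at 11.2 ± 1.78 CPM (SD, n = 5) in sham and 13.8 ± 1.76 CPM (SD, n = 5) in TBI, a change of 0.30 (SE 0.116, edgeR unadjusted p = 0.0177, adjusted p = 0.548). Syt17 had a change of -0.18 (edgeR adjusted p = 0.643), and its unadjusted p was under 0.05 without sham rat 5, TBI rat 2 or TBI rat 4. The unadjusted p of Syt17 was also under 0.05 at -0.26 without sham rats 4 and 5, and at -0.30 with the ribosomal RNA covariate.

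Of 19 other vesicle membrane genes, 1 was at the edge of the unadjusted threshold. Synpr, which encodes synaptoporin, a relative of synaptophysin that is rich in mossy fibre terminals, had a mean of 47.6 ± 10.1 CPM (SD, n = 5) in sham and 38.4 ± 5.37 CPM (SD, n = 5) in TBI, with a change of -0.31 (SE 0.143, edgeR unadjusted p = 0.04996, adjusted p = 0.633). Without sham rat 1, the rat low in dentate markers, the change of Synpr was -0.43 (edgeR adjusted p = 0.421, with a range over all alternatives from 0.380 to 0.989). The next smallest p values of the list belonged to Rab27b, a small GTPase of vesicle traffic, and to Sv2c, the paralog of Sv2a and Sv2b. Rab27b was at 1.82 ± 0.135 CPM (SD, n = 5) in sham and 1.41 ± 0.445 CPM (SD, n = 5) in TBI, and Sv2c at 1.64 ± 0.421 and 1.29 ± 0.433 CPM. Both rest on few reads, 25 to 73 counts per rat for Rab27b and 18 to 69 for Sv2c. Their changes were -0.36 and -0.40, neither past the threshold. Without TBI rat 1 Rab27b was at -0.55 with an unadjusted p under 0.05, and Sv2c was at -0.20 without TBI rat 5 and at -0.25 without sham rat 3. The list had a median change of -0.02.

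Of the other SNARE genes, 0 of 14 were under the unadjusted threshold, and their median change was -0.03. Their lowest p values were those of Stx4, a syntaxin of general exocytosis, at 0.15 (SE 0.0948), Stx12, an endosomal syntaxin, at -0.11 (SE 0.0782), and Vamp1, the synaptobrevin that predominates in the spinal cord and brainstem, at -0.14 (SE 0.113). Without sham rat 1 Stx4 was at 0.099 and Vamp1 at -0.051, Vamp1 was at -0.22 without TBI rat 5, and Stx12 was at -0.072 without sham rat 4. Stx4 had an unadjusted p under 0.05 without sham rat 5, and at 0.68 and 0.31 with total counts and with total counts outside ribosomal RNA. Of 18 genes of vesicle endocytosis, only Cltc, the clathrin heavy chain, was under the unadjusted threshold. Cltc had a mean of 394 ± 43.8 CPM (SD, n = 5) in sham and 346 ± 17.9 CPM (SD, n = 5) in TBI, a change of -0.18 (SE 0.0849, edgeR unadjusted p = 0.0426, adjusted p = 0.620). The changes were -0.17 in the clathrin adaptor subunit Ap2a2 and -0.14 in Synj1, a phosphatase that helps to strip clathrin from the vesicle, and neither passed the threshold. Without sham rat 1 they were -0.059 and -0.037, and without sham rat 5 Ap2a2 was at -0.25 with an unadjusted p under 0.05. Without sham rats 4 and 5 Ap2a2 was at -0.26, also with an unadjusted p under 0.05. The list had a median change of -0.06.

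**Figure D5:**
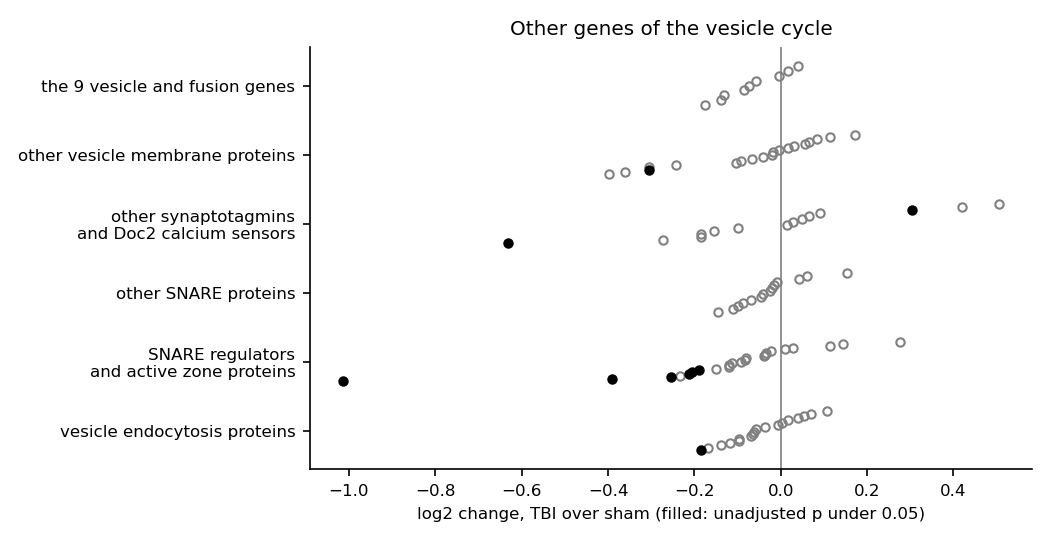
Change in TBI over sham rats on the log2 scale for the 9 vesicle and fusion genes and for 88 other genes of the vesicle cycle in 5 lists. Each point is a gene, and filled points have an unadjusted p under 0.05. Of the 10 filled points 9 lie below 0, 6 of them in the list of SNARE regulators and active zone proteins. With total count scaling none of 7 such genes was lower, and with total counts outside ribosomal RNA 2 of 9 were. Those scalings moved the median of all records to 0.50 and 0.14. None of the points passed an adjusted p of 0.05.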

How the data were processed

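Poly-A RNA from 5 sham and 5 TBI rats was sequenced on a Genome Analyzer IIx. The authors deposited unnormalized counts for each RefSeq RNA record and each rat. Per the submitters' processing notes reads were aligned with BWA to rn4, whereas the methods of the study name Ensembl transcripts for counting. Those methods give 3 control rats for this model, while the labels and the table give 5, and all were used. The rows that name no record, an empty entry and the unmapped reads (median 22.2% of reads), were left out. Symbols came from a RefSeq table of another build, used for names only, and 54.2% of records matched. Records of 1 gene, and overlapping genes, share reads.

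Records with a total count of at least 44, the 30th percentile, were kept as in the study. Groups were compared with the robust quasi-likelihood F test of edgeR 4.0.16 (TMM, R 4.3.3) and Benjamini-Hochberg adjustment over all 22431 records. Paralog ratios, with a pseudocount of 0.5, were tested with scipy 1.17.1. The labels do not pair the rats, and p-values set the difference between groups against the spread between these animals. In edgeR that spread is moderated over all records. Over the 45 pairs of libraries, the chi-square of counts per degree of freedom was at least 8.99. Alternatives were the likelihood ratio test, DESeq2 1.42.0, limma 3.58.1 with voom, other scalings, no filter, rows summed per symbol, a ribosomal RNA covariate, and leaving out rats. Scaling by counts outside ribosomal RNA was added after seeing the data. Named genes were the 9 genes, the 3 with the smallest p in each of 5 lists, and the paralogs compared, of which 1 pair is not reported here. Cplx3, Napa, Erc2, Prox1, C1ql2, Wfs1 and the GABAergic and astrocyte markers given by name were named after their values were seen. The 9 genes and all lists were chosen with earlier results of these data known. The fit was tested on simulated data.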

Additional observations from a re-analysis of the deposited data

Results flagged for a closer look

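In 1 of 56 groups of 5 values, 1 rat stood far from the others. Vamp1 was at 307 CPM in TBI rat 5 and at 223 to 247 CPM in the other 4 TBI rats. Chance flags about 2.8 of 56 such groups.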

How the results depend on the processing

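The count of the 9 genes past an adjusted p of 0.05 was 0 under all 20 alternatives, as was that of the 88 other vesicle cycle genes. The count with an unadjusted p under 0.05 was 0 for the 9 genes and 1 (Syn2) with the ribosomal RNA covariate and 1 without the ribosomal RNA-rich sham rats, and from 0 to 1 when 1 rat was left out. For the other vesicle cycle genes it was 10, and from 4 to 11 when 1 rat was left out. Total count scaling moved the median of all records to 0.50 and the median of the 9 genes to 0.42, with Sv2a at 0.42, Sv2b at 0.32, Syn2 at 0.28, Syt1 at 0.40, Snap25 at 0.45, Stx1a at 0.48 and Vamp2 at 0.37. Scaling by counts outside ribosomal RNA moved the median of all records to 0.14, and that of the 9 genes to 0.085, with Sv2a at 0.072, Sv2b at 0.016, Syt1 at 0.085, Snap25 at 0.086, Stx1a at 0.14 and Vamp2 at 0.017. Under both scalings the median of the 9 genes stayed below that of all records. Syn1 and Syp were at -0.035 and -0.077 with the ribosomal RNA covariate and at -0.023 and -0.043 without the ribosomal RNA-rich sham rats. Stx1a was at 0.00326 without a filter, and the ratio of Vamp1 to Vamp2 differed by -0.030 without the ribosomal RNA-rich sham rats. When 1 rat was left out, changes ran from -0.11 to -0.054 in Sv2a, -0.19 to -0.084 in Vamp2, -0.25 to -0.092 in Syn2, -0.23 to 0.019 in Sv2b, -0.067 to 0.073 in Syn1, -0.11 to 0.023 in Syt1, -0.14 to 0.0077 in Snap25, -0.10 to 0.080 in Stx1a and -0.027 to 0.13 in Syp. Ratio differences ran from -0.10 to 0.081 for Sv2b to Sv2a and -0.075 to 0.057 for Vamp1 to Vamp2, and those of Syn2 to Syn1 and Syt2 to Syt1 kept their sign. With 4 rats against 5 the smallest exact permutation p is 0.0159, which adjusts to 0.0794 over 5 pairs where 1 pair alone reaches it. The causes were not tested. The number of rats limits these comparisons, and for the 9 genes counting error is small beside the spread between rats. That does not extend to genes with few reads, such as Syt2 at 64 to 220 counts per rat, Rab27b at 25 to 73 and Sv2c at 18 to 69.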
